A study of Mus musculus with 12 samples.

Results

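The replication-dependent histone cluster genes of the mouse were taken as every row of the deposited table whose name begins with Hist, a digit and h. The rule found 70 of the 49585 rows. By the letters of the name, 6 encode the linker histone H1, 20 encode H2A, 19 encode H2B, 12 encode H3 and 13 encode H4, of which 67 have a coding transcript in the GENCODE M21 annotation. Hist1h2aj, Hist1h2al and Hist3h2bb-ps are annotated or named as pseudogenes.

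Core histones H2A, H2B, H3 and H4 form the spool around which DNA is wound, and H1 sits on the linker DNA between spools. The cluster genes are transcribed mainly while DNA is copied, so their transcripts are widely used as a sign of dividing cells. Their mRNAs are known, as a rule, to end in a stem-loop that is bound by SLBP, in place of the poly-A tail of other mRNAs.

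Lung RNA of C57BL/6 mice was sequenced in 12 libraries, 3 in each of 4 groups: Has2+/- after ovalbumin, Has2+/- after saline, WT after ovalbumin and WT after saline. Has2 encodes a hyaluronan synthase, and ovalbumin is a protein allergen to which, as the design text says of WT, mice were sensitized before it was given through the nose. The titles of the ovalbumin samples carry the number 24 with no unit. The labels do not say where or when the Has2 allele is lost, and animals are not named, so p-values measure the spread between these libraries. In the table the libraries carry running numbers: 7 to 9 are Has2+/- ovalbumin, 10 to 12 Has2+/- saline, 1 to 3 WT ovalbumin and 4 to 6 WT saline. Judged from the values, they are read counts that were forced to the same distribution in all 12 libraries, with a sum of 6852201 units each, so the depth of a library is unknown and a value found in 1 library often recurs in another. Changes are differences in log2(value + 1), tested with limma over 19017 genes, and a gene is said to have risen or fallen where the Benjamini-Hochberg adjusted p was under 0.05.

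Lung markers were high throughout, with the surfactant gene Sftpc at 53830 units or more in every library. The targeted gene did not check the genotype. Has2 was at 6.67, 5.75 and 11.25 units in Has2+/- ovalbumin libraries and at 3.5, 6.42 and 10.25 in WT ovalbumin libraries. Under saline it was at 7.67, 8.17 and 7.42 units in Has2+/- and at 6.67, 4.42 and 6.08 in WT. Has2 was thus no lower in libraries labelled Has2+/- (limma adjusted p = 0.809 after ovalbumin and 0.978 under saline), and each genotype difference below rests on the labels alone. Library 3 had Spearman correlations of 0.971 and 0.975 with the other WT ovalbumin libraries and of 0.985 with WT saline library 4. Library 12 correlated at 0.979 and 0.982 with the other Has2+/- saline libraries and at 0.990 with WT saline library 5. In all, 6 of the 12 libraries had their highest correlation outside their group. Libraries 3 and 12 differed from the others in that both of their correlations within the group were at or under 0.982, while each other library had at least 1 of 0.987 or more. Counts of members are therefore also given without these 2 libraries. The labels name both rRNA depletion and poly-A purification, and whether either acted on mRNAs that lack a poly-A tail was not tested.

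The members lie in 4 clusters. Hist1, on chromosome 13, holds 56 members, Hist2 on chromosome 3 holds 10, Hist3 on chromosome 11 holds 3 and Hist4 on chromosome 6 holds 1. On chromosome 13 (GRCm38) 24 members lie between 21715763 and 22043676, 31 between 23531050 and 23934851, and Hist1h2al lies apart at 51202727 to 51203065. The stem-loop, a stem of 6 paired bases around a loop of 4, was found in annotated GENCODE M21 transcripts of 46 members, beginning 22 to 59 bases after the stop codon. Its stem differed by class: 26 members of the H1, H2A, H2B and H3 classes shared 1 stem-loop, and 7 H4 members shared another. The annotated transcript ended within 100 bases after the stem-loop in 23 members. It ran 100 bases or more past it in 23, among them Hist1h1c and Hist1h1e, and no stem-loop was matched in 24. Among these 24 are pseudogenes and members whose annotated transcript ends at the stop codon, such as Hist1h2ai, with 393 bases for 130 residues. The lack of a match therefore does not show that a gene lacks the stem-loop. The stem-loops of members that the results turn on are shown here, from transcripts of GENCODE M21, 5′ to 3′, with the stem-loop in capitals and 5 bases on each side.
Hist1h1c: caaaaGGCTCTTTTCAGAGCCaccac
Hist1h1e: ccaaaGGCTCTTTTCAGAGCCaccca
Hist1h2bb: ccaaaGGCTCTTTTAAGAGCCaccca
Hist1h3c: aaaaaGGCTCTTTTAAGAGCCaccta
Hist1h4a: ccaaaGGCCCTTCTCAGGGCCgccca
Hist1h4d: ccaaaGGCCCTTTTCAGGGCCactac
Hist2h4: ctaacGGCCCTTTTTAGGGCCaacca
Hist1h1c and Hist1h1e hold the same 16 bases. Hist1h4a and Hist1h4d, of which the first rose with ovalbumin in WT and the second did not pass, encode the same protein and differ at 1 position of the stem-loop, in the loop. Hist1h4j, which also rose in WT, has the same loop as Hist1h4d. Whether the loop bears on the change with ovalbumin was not tested.

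RefSeq promoters, from 250 bases before to 50 after the annotated start (GRCm38.p6), were found on the strand of the gene and within 1000 bases of it for 61 of the 70 members. CCAAT, on either strand, was present in all 49 promoters of the H1, H2A, H2B and H3 classes and in 3 of 12 H4 promoters, against 37.4% of all 32851 promoters in the table. TATAAA was present in 35 of 61 member promoters, against 13.6% of all promoters. ATTTGCAT, the octamer that POU2F1 binds, was present in 7 of 17 H2A and 6 of 16 H2B promoters and in 0 of the 28 others, against 1.74% of all promoters. AAACACA, known as the H1 box, was present in 5 of 6 H1 promoters, against 7.18% of all promoters. In the promoters shown no match overlaps a match of another motif, and a match is a description of the sequence. Promoters are shown for the H1 genes with the highest levels, for an H2B gene with 3 of the motifs, and for the H4 pair named above. Matches of these 4 motifs, in either direction, are in capitals.
Hist1h1c, chr13:23738557-23738856, plus strand: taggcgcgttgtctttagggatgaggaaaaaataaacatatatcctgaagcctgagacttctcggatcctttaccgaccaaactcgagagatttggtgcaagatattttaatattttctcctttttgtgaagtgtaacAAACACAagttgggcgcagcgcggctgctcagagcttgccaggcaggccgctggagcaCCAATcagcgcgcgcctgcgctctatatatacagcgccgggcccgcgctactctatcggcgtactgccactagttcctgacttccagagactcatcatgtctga
Hist1h1e, chr13:23622509-23622808, minus strand: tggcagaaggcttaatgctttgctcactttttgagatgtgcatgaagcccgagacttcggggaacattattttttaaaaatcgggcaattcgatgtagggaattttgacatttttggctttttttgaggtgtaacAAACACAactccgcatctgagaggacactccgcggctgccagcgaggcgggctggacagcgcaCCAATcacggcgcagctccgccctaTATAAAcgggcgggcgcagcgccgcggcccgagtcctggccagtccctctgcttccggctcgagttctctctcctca
Hist1h2bb, chr13:23746484-23746783, plus strand: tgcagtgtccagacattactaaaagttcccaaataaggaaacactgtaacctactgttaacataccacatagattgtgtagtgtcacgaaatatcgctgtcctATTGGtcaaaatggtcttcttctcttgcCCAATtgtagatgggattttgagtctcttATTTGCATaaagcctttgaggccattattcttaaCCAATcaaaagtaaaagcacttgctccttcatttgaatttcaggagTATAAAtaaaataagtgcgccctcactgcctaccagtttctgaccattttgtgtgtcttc
Hist1h4a, chr13:23761200-23761499, minus strand: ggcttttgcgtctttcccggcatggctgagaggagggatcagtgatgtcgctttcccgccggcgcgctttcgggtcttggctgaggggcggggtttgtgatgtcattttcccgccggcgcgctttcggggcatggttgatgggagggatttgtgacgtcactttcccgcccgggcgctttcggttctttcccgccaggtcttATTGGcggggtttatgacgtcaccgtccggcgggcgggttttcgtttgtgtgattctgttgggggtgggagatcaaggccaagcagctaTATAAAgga
Hist1h4d, chr13:23581318-23581617, plus strand: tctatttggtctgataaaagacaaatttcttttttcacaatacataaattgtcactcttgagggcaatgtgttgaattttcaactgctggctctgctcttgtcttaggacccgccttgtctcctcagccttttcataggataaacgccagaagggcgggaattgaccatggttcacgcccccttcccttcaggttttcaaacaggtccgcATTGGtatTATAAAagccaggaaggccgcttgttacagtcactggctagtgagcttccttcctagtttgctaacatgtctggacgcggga
In both H1 promoters AAACACA precedes CCAAT. It begins 112 bases before the start in Hist1h1c and 115 in Hist1h1e, and CCAAT begins 54 and 52 bases before it. The promoters of Hist1h4a and Hist1h4d each hold CCAAT on the other strand, 48 and 40 bases before the start. Hist1h2bb, Hist1h4a and the set to print were chosen after values were seen.

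Of the 70 members, 56 had a mean of at least 1 unit in at least 1 group and were tested. The other 14 were Hist1h2aa, Hist1h2aj, Hist1h2al, Hist1h2ao, Hist1h2ba, Hist1h2br, Hist1h4b, Hist2h2aa1, Hist2h2aa2, Hist2h2bb, Hist2h3b, Hist2h3c1, Hist3h2a and Hist3h2bb-ps. Among them 6 are listed at 0 in every library. Copies of these genes are near-identical: all 13 H4 members encode 1 protein of 103 residues, 9 H2A members encode 1 of 130 residues and 7 H3 members encode 1 of 136 residues. Of the stretches of 50 bases in a member's annotated transcripts, the median share found in no other annotated gene was 53.6% in tested members and 26.4% in the others. It was 0.0% for Hist2h2aa2 and Hist2h3c1. How reads that match several copies were counted is not given in the sources used here, so the split of reads among core histone copies is uncertain, including that of Hist1h2ap, at 6.9%. By this share H1 genes were the most distinct class, with a median of 98.8%, 91.5% for Hist1h1c and 68.0% for Hist1h1e. The interval listed in the table has the annotated coordinates in 47 of the 70 members, and annotated transcripts can run far past it. The longest transcript holds 7425 bases in Hist1h1d, 1930 in Hist1h1e and 2482 in Hist1h2ac, where the listed intervals hold 744, 748 and 476. Shares within the listed intervals were not worked out and may be lower.

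H1 genes held 48.3 to 66.1% of the members' summed units, depending on the library. Per kilobase of the interval listed in the table, Hist1h1e averaged 4555 units over the 12 libraries and Hist1h1c 2757. Next came the H4 genes Hist1h4d and Hist1h4c at 2599 and 1625 units per kilobase, the H1 gene Hist1h1d at 1463 and the H4 gene Hist1h4h at 1242. The leading H2A gene by this scale, Hist2h2ac, was at 406 units per kilobase. Hist1h1t, known as the testis-specific H1 gene, was at 5.16. Levels per kilobase depend on where the listed interval ends, which is 840 bases past the stem-loop in Hist1h1c and 27 in Hist1h1e. In units not divided by length Hist1h1c averaged 4301 and Hist1h1e 3407, so the order of genes can change with the scale. Together the members made up 0.194 to 0.226% of each Has2+/- ovalbumin library, 0.153 to 0.193% of each Has2+/- saline library, 0.287 to 0.322% of each WT ovalbumin library and 0.186 to 0.229% of each WT saline library.

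**Figure D1:**
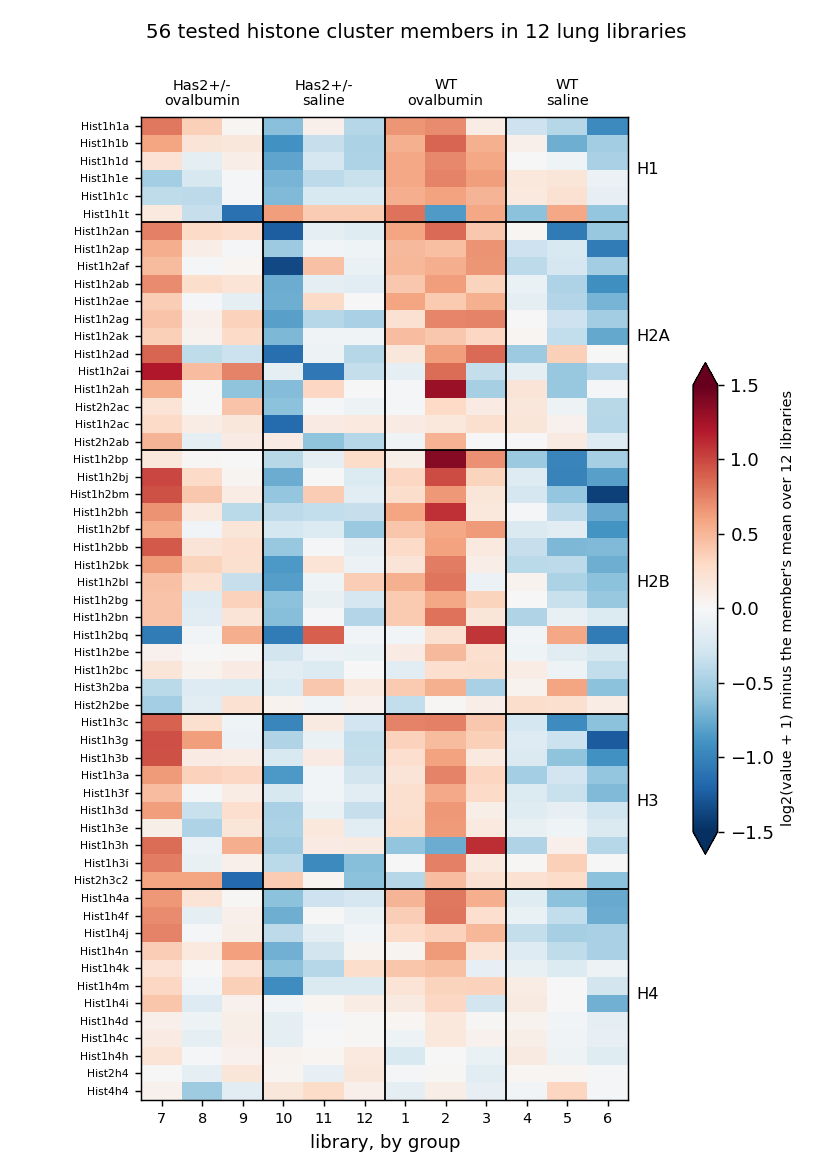
The 56 tested members (rows, by class and then by their ovalbumin change in WT) in 12 libraries (columns, by group). Colour is log2(value + 1) minus the member's mean over the libraries, with values past 1.5 drawn in the end colour. WT ovalbumin columns are mostly red and WT saline columns mostly blue, and in Has2+/- library 7 is the reddest and library 10 the bluest.

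The first question is which cluster genes changed with ovalbumin in WT lungs. Histone genes rose broadly: 27 of the 56 tested members rose and 0 fell, where 8.65% of all 19017 genes rose and 8.05% fell. At an unadjusted p under 0.05, 34 members were higher and 0 lower, where 14.5% of all genes were higher and 15.6% lower. The median change of the tested members was 0.68, against -0.03 over all genes, and 52 of 56 had a positive change. In these bulk samples more cells of a type and more RNA per cell cannot be told apart. The count was 24 without library 3 and 24 without libraries 3 and 12. It was 16, 17 and 12 without library 1, 2 or 6. Of the 27 members, 11 passed in all 20 other settings, namely Hist1h1b, Hist1h1d, Hist1h1e, Hist1h2ab, Hist1h2ap, Hist1h2bb, Hist1h2be, Hist1h3a, Hist1h3f, Hist1h4a and Hist1h4j. The other 16 missed the threshold in at least 1 setting, with adjusted p of up to 0.177.

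Among linker histones 5 of 6 rose. Hist1h1b had 359, 453 and 358 units in WT ovalbumin libraries, against 260.1, 148 and 171 in WT saline libraries, a change of 1.04 ± 0.22 (SE, limma adjusted p = 0.0101). Hist1h1a and Hist1h1d also rose, by 1.06 and 0.81, the first call being lost without library 1 or 6 (adjusted p up to 0.0654). The groups did not overlap for any of these 3 genes. Hist1h1c and Hist1h1e, the H1 genes with the highest levels per kilobase, rose by 0.47 and 0.56, with adjusted p of 0.0412 and 0.0128. For Hist1h1c that was 6049, 6303 and 5906 units in WT ovalbumin libraries and 4603, 4850 and 3819 in WT saline libraries, again without overlap. Its call was lost without any of libraries 1, 2, 3, 4, 6 or 7, with the adjusted p reaching 0.129.

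Among H2A genes 6 of 13 tested members rose (Hist1h2ab, Hist1h2ae, Hist1h2ag, Hist1h2ak, Hist1h2an and Hist1h2ap), by 0.76 to 1.15. H2A pairs with H2B at the outside of the spool. Hist1h2ap had 83.7, 81.8 and 96.1 units in WT ovalbumin libraries, against 47.75, 51 and 28.25 in WT saline libraries, a change of 1.07 ± 0.22 (SE, limma adjusted p = 0.00476). Hist1h2an, at a lower level, had 23, 27.8 and 20.1 units after ovalbumin, against 15.3, 6.67 and 9.75 after saline, and its call was lost without library 1, 2, 5 or 6 (adjusted p up to 0.148).

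Among H2B genes 9 of 15 tested members rose (Hist1h2bb, Hist1h2be, Hist1h2bf, Hist1h2bg, Hist1h2bh, Hist1h2bj, Hist1h2bk, Hist1h2bm and Hist1h2bp), by 0.44 to 1.39. The largest change of any member was that of Hist1h2bp, with 15.2, 38.2 and 23.4 units in WT ovalbumin libraries and 9.33, 6.67 and 9.75 in WT saline libraries. That change was 1.39 ± 0.34 (SE, limma adjusted p = 0.0103), with ovalbumin libraries that differed among themselves by more than the saline libraries did, and its call was lost without library 2 (adjusted p = 0.0519). Hist1h2bj rose by 1.21, with 76, 121.3 and 77 units after ovalbumin and 53.25, 30 and 34.25 after saline, a call lost without library 5 or 6 (adjusted p up to 0.0597), and Hist1h2bb rose by 0.91.

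Among H3 genes 5 of 10 tested members rose (Hist1h3a, Hist1h3b, Hist1h3c, Hist1h3f and Hist1h3g), by 0.76 to 1.24. Hist1h3c had 121.5, 122.7 and 96.2 units in WT ovalbumin libraries, against 60.1, 37.2 and 46.9 in WT saline libraries, a change of 1.24 ± 0.29 (SE, limma adjusted p = 0.0132). That call was lost without library 1, 5 or 6 (adjusted p up to 0.0562). Hist1h3f rose by 0.76, with 287, 361 and 297 units after ovalbumin and 212, 193 and 154 after saline. Hist1h3e had a change of 0.49 that missed the threshold (adjusted p = 0.109), although its ovalbumin libraries lay above its saline libraries.

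Of the H4 genes only Hist1h4a and Hist1h4j, 2 of 12 tested members, rose. Hist1h4a had 248, 302 and 254 units in WT ovalbumin libraries, against 153, 113 and 102 in WT saline libraries, a change of 1.13 ± 0.17 (SE, limma adjusted p = 0.00104), and Hist1h4j rose by 0.82. Hist1h4f, with a change of 0.88, missed the threshold (adjusted p = 0.0596). The 3 H4 genes with the highest levels per kilobase did not pass. Hist1h4d had 1038, 1138 and 1032 units after ovalbumin and 1057, 989.8 and 925 after saline. Hist1h4c had 609, 714 and 668 units after ovalbumin and 679, 618 and 586 after saline. For Hist1h4h the values were 498, 590.1 and 546 units after ovalbumin and 644, 554 and 515 after saline. All 3 pairs of groups overlapped, and the 95% intervals of the changes ran from -0.04 to 0.26 for Hist1h4d, -0.10 to 0.26 for Hist1h4c and -0.26 to 0.13 for Hist1h4h. These intervals do not reach 0.44, the smallest change that passed, that of Hist1h2be.

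All 27 members that rose lie in the Hist1 cluster, of which 49 members were tested. In its first block 10 of 21 tested members rose, and in its second 17 of 28. None of the 7 tested members outside Hist1 passed, and their changes ran from -0.29 to 0.24. Hist2h2be had 48.7, 64.1 and 67.9 units in WT ovalbumin libraries and 76, 75 and 68.5 in WT saline libraries, and was the only member whose ovalbumin libraries all lay below its saline libraries, without passing the test (change -0.29, limma adjusted p = 0.319). Hist2h4 and Hist4h4, the H4 genes outside Hist1, had changes of -0.07 and -0.14 that did not pass. No test of Hist1 against the other clusters was made. Split by the share of unique stretches in annotated transcripts, 17 of 32 tested members with at least 50% rose, and 10 of 24 with less. Shares within the listed intervals may differ, so this split is not a test of mapping.

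**Figure D2:**
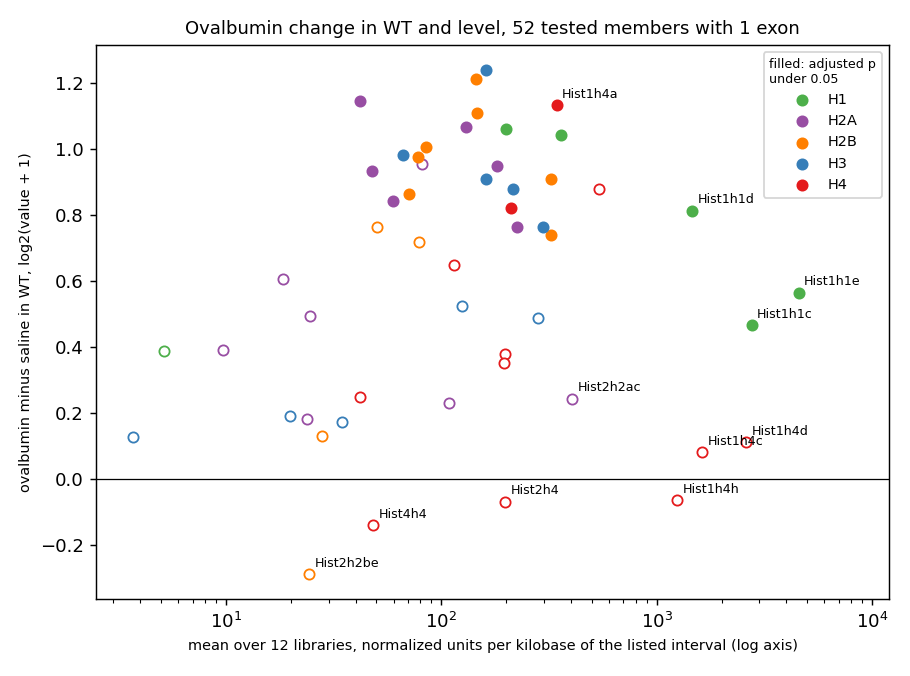
Change with ovalbumin in WT (vertical axis, log2) against the mean level per kilobase of the listed interval (horizontal log axis) for the 52 tested members with 1 exon, coloured by class. Filled points passed the test; Hist1h4d, Hist1h4c and Hist1h4h lie near 0 at 1242 to 2599 units per kilobase, beside the H1 genes that rose.

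The same comparison in Has2+/- lungs gave mostly positive changes and few calls. Of the 56 tested members 1 rose and 0 fell, where 1.85% of all genes rose and 0.952% fell. The change was positive in 50 of 56, with a median of 0.49 against 0.01 over all genes, and at an unadjusted p under 0.05 there were 26 higher members and 1 lower member, where 10.5% of all genes were higher and 8.88% lower. The member that rose was Hist1h3a, with 169, 138 and 135 units in Has2+/- ovalbumin libraries, against 59.3, 105 and 89.6 in Has2+/- saline libraries. Its change was 0.82 ± 0.19 (SE, limma adjusted p = 0.0363), against 0.88 in WT. This call was lost without library 4, 6, 7, 8, 10 or 12, and also in 3 other settings, with an adjusted p of up to 0.163. Without libraries 3 and 12 the count was 3, adding Hist1h4k and Hist1h4n.

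Several members that rose in WT fell short of the threshold here. Hist1h4a had 273, 199.8 and 176 units in Has2+/- ovalbumin libraries, against 113, 139.8 and 145 in Has2+/- saline libraries, a change of 0.68 with an adjusted p of 0.0511. Hist1h1b (change 0.89) and Hist1h2ag (change 0.86) had adjusted p of 0.0594 and 0.0596. The largest change was that of Hist1h2ai, 1.33 (adjusted p = 0.0800), with 21.1, 12.25 and 15.2 units after ovalbumin and 7.67, 3.58 and 6.5 after saline. Hist1h1c (0.11), Hist1h1e (0.21) and Hist1h2bp (0.15) had small changes that did not pass. Hist1h1t had a change of -0.90, with 3.83, 2.42 and 1 units after ovalbumin and 5.75, 4.67 and 4.67 after saline. Hist4h4, with 143, 93.7 and 122 units after ovalbumin and 154, 165 and 144 after saline, had a change of -0.38 (adjusted p = 0.168).

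Counting members whose 3 ovalbumin libraries all lay above the 3 saline libraries gave 23 of 56 in Has2+/- and 34 of 56 in WT. The shares of all tested genes that met this rule were 13.2% in Has2+/- and 16.2% in WT. Within Has2+/- the ovalbumin libraries were uneven, and library 7 had the highest value of its group in 43 of the 56 tested members. The share of all genes for which library 7 was highest was not worked out, so this is not shown to be particular to histone genes.

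The difference between the genotypes' responses was tested as an interaction, and 0 of 56 members passed in either direction, where 0.00526% of all genes had a larger and 0.0105% a smaller response in Has2+/-. At an unadjusted p under 0.05 the response was smaller in 2 members and larger in 0, where it was smaller in 3.45% and larger in 5.1% of all genes. It was smaller in 41 of 56, with a median difference of -0.22, where it was larger in 52.3% of all genes, with a median of 0.02. Hist1h2bp had -1.25 ± 0.48 (SE, adjusted p = 0.516), Hist1h1c -0.36 and Hist1h1e -0.35. The calls in WT and the lack of them in Has2+/- are thus not shown to differ.

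Averaged over the genotypes, a comparison added after the data were seen, 32 of 56 members rose with ovalbumin and 0 fell, where 11.4% of all genes rose and 11% fell. They comprised 4 H1, 7 H2A, 10 H2B, 6 H3 and 5 H4 members, all in Hist1. Hist1h4a changed by 0.91 ± 0.12 and Hist1h3a by 0.85 ± 0.14 (SE, limma adjusted p = 0.000251 and 0.000534). Hist1h4d (0.09), Hist1h4c (0.08) and Hist1h4h (-0.03) again did not pass. Leaving out any 1 library gave between 26 and 34 members, and leaving out libraries 3 and 12 gave 33.

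**Figure D3:**
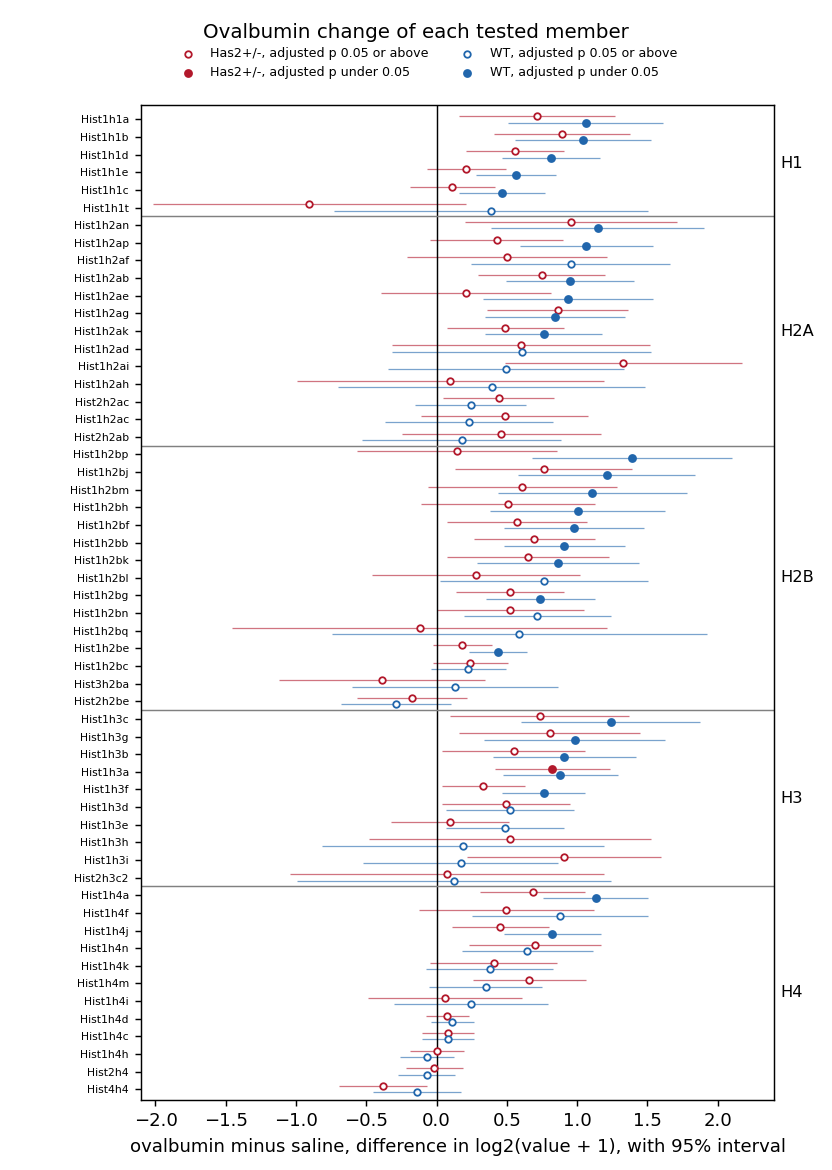
Ovalbumin change (log2 difference, horizontal axis) of each tested member with its 95% interval, in Has2+/- (red, upper) and WT (blue, lower), filled where the adjusted p was under 0.05. Of the 56 members 27 are filled in WT and 1, Hist1h3a, in Has2+/-.

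The genes that work with the cluster were read from lists. Of all 19017 genes tested, 8.65% rose and 8.05% fell in WT, and 1.85% rose and 0.952% fell in Has2+/-. Mcm2 stands in both the DNA replication and the chaperone list and is counted in each. Of 36 DNA replication genes 24 rose and 0 fell in WT, led by Uhrf1 (1.99), Mcm10 (1.89), Rrm2 (1.80) and Mcm5 (1.58), and 6 rose in Has2+/-, led by Gins2 (1.42) and Uhrf1 (1.22). Of 25 mitosis genes 14 rose in WT, led by Cdk1 (1.46) and Birc5 (1.41), and 0 passed in Has2+/-. Of 16 histone chaperones, which carry new histones to DNA, 8 rose in WT, led by Asf1b (1.34), Mcm2 (1.10) and Chaf1a (1.09), and 1 in Has2+/-, Atrx (0.23). Of 25 tested genes of histone pre-mRNA processing and histone gene transcription 5 rose in WT. These were the cyclin E genes Ccne2 (1.67) and Ccne1 (1.05), Slbp (0.55), the export receptor Xpo1 (0.43) and the stem-loop exonuclease Eri1 (0.36). Slbp (0.43) and Xpo1 (0.46) also rose in Has2+/-. Of 12 tested genes listed as replication-independent histone variants, H2afx (0.68), H2afz (0.52), H3f3b (0.46) and H2afy (0.25) rose in WT. H2afv fell by 0.29 in WT, and 0 of the 12 passed in Has2+/-. The name is that of the list, and whether the mRNA of each gene, H2afx included, depends on replication was not tested.

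The uneven Has2+/- ovalbumin libraries were uneven in these lists too. Summed over the DNA replication list, Has2+/- ovalbumin libraries 7, 8 and 9 had 7622, 5863 and 4873 units, against 4082, 4421 and 4770 in Has2+/- saline libraries. In WT the sums were 6661, 6363 and 6543 after ovalbumin and 3985, 3916 and 3769 after saline. Core histone members summed to 7741, 6018 and 6732 units in Has2+/- ovalbumin libraries and to 5039, 5998 and 5976 in Has2+/- saline libraries. In WT they summed to 6679, 8015 and 6860 units after ovalbumin and to 6059, 5505 and 4884 after saline. Library 7 was thus the highest of its group in both sums, and the groups did not overlap in either sum in either genotype.

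Markers of other cell types moved as well. The macrophage list (Adgre1, Cd68, Marco, Mrc1, Siglecf) summed to 1867 to 2312 units in Has2+/- ovalbumin, 1343 to 1512 in Has2+/- saline, 2298 to 2445 in WT ovalbumin and 1180 to 1361 in WT saline, with 3 of its 5 genes rising in each genotype. The list of 6 T cell genes summed to 524 to 578 units in Has2+/- ovalbumin, 438 to 585 in Has2+/- saline, 508 to 685 in WT ovalbumin and 425 to 515 in WT saline, with Cd28 rising in Has2+/- and Cd28, Cd3d and Trac in WT. Plasma cell genes summed to 1589 to 2760 units in Has2+/- ovalbumin, 1768 to 1943 in Has2+/- saline, 1834 to 2895 in WT ovalbumin and 1847 to 1991 in WT saline, with 0 of 4 passing in either genotype. Most of each sum was Sdc1, at 1511 units or more in every library. Jchain was uneven, at 828.8, 55.3 and 386.1 units in Has2+/- ovalbumin and 921.8, 453.7 and 23.4 in WT ovalbumin. Under saline it was at 37.2, 65 and 69.4 units in Has2+/- and 61, 119.3 and 107.8 in WT. Erythroid precursor genes, of which 0 of 5 passed in either genotype, summed to 404 to 573 units in Has2+/- ovalbumin, 551 to 1154 in Has2+/- saline, 143 to 382 in WT ovalbumin and 433 to 452 in WT saline. B cell genes summed to 1035 to 1461 units in Has2+/- ovalbumin, 1323 to 1692 in Has2+/- saline, 1139 to 1358 in WT ovalbumin and 1430 to 1816 in WT saline, with Cd79b, 1 of 5, falling in WT. The 5 thymocyte genes summed to 48.3 to 51.4 units in Has2+/- ovalbumin, 29.1 to 60.4 in Has2+/- saline, 49.1 to 71.4 in WT ovalbumin and 28.1 to 46.2 in WT saline. Cd8b1 and Dntt, the 2 that could be tested, did not pass in either genotype, and Rag2 and Ptcra are listed at 0 in all 12 libraries. Cd8b1 made up most of each thymocyte sum, at 26.67 units or more in every library. The 4 myeloid precursor genes together stayed at or under 32.25 units. Bcl6, a gene of germinal centre B cells, fell in both genotypes. The 10 lung genes summed lowest in WT ovalbumin, where 3 of them fell. The part of these cells in the histone changes was not tested.

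**Figure D4:**
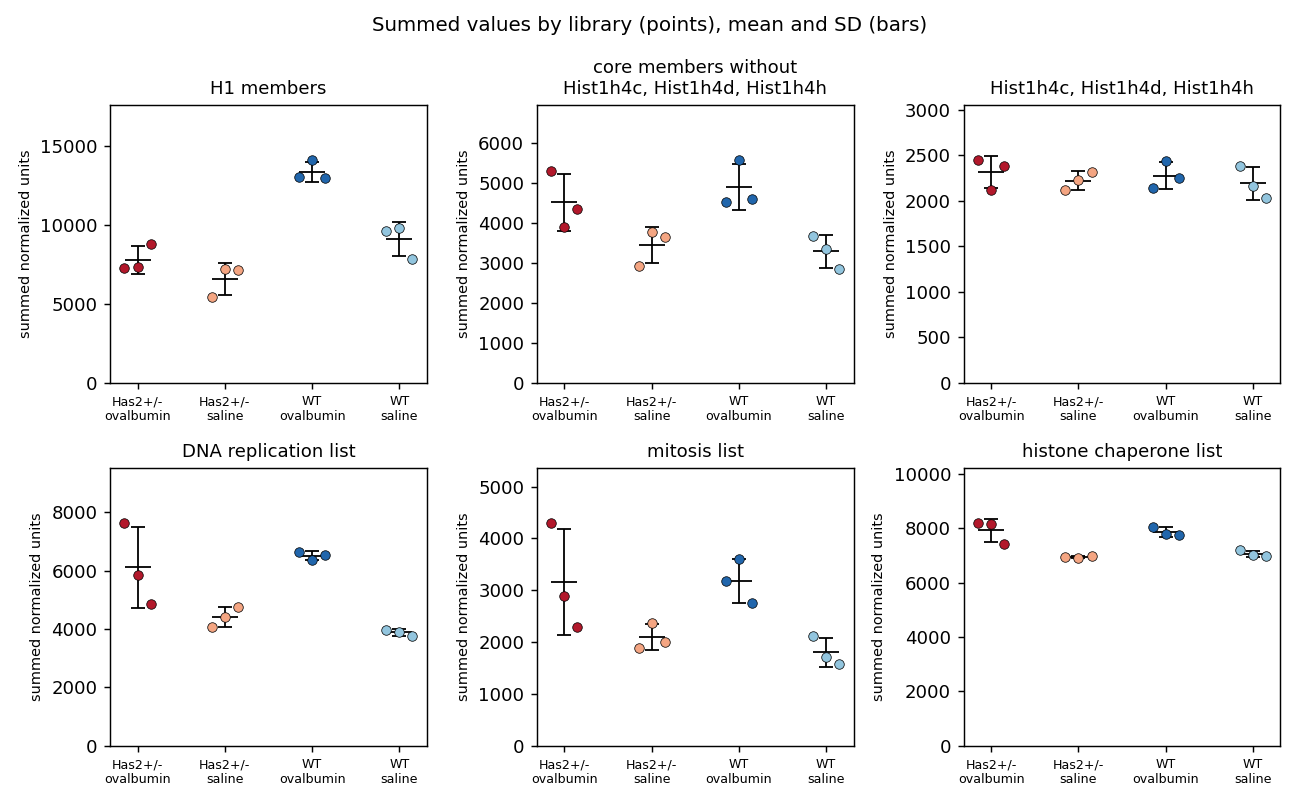
Summed normalized units by library (points), with the mean and SD of 3 libraries, for H1 members, core members without Hist1h4c, Hist1h4d and Hist1h4h, those 3 genes, and the lists of DNA replication, mitosis and histone chaperones. Hist1h4c, Hist1h4d and Hist1h4h stay level across the 4 groups at 2026 to 2445 units, while Has2+/- library 7 is highest of all for DNA replication and mitosis.

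Comparing Has2+/- with WT, the members that differed were linker histones. After ovalbumin 2 of 56 members, Hist1h1e and Hist1h1c, fell in libraries labelled Has2+/- and 0 rose, where 0.363% of all genes fell and 0.589% rose. Hist1h1e had 2271, 2742 and 3176 units in Has2+/- ovalbumin libraries, against 4850, 5424 and 5012 in WT ovalbumin libraries. Its difference was -0.91 ± 0.13 (SE, limma adjusted p = 0.0120). Hist1h1c had 3176, 3168 and 4073 units in Has2+/- ovalbumin libraries, against 6049, 6303 and 5906 in WT ovalbumin libraries, a difference of -0.82 ± 0.14 (SE, limma adjusted p = 0.0290). For both genes the groups were far apart, the highest Has2+/- library lying under the lowest WT library. Hist1h1e passed in 17 of 20 other settings and lost its call without library 1 or 8 and with neither trend nor robust fitting (adjusted p up to 0.0671). Hist1h1c passed in 14 of 20 and lost its call without library 1, 2, 3 or 8, without libraries 3 and 12, where the count was 1, and with neither trend nor robust fitting (adjusted p up to 0.124).

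Under saline 0 of 56 members passed in either direction, where 0.0105% of all genes rose and 0% fell. At an unadjusted p under 0.05, 3 were lower and 0 higher, where 3.01% of all genes were lower and 2.61% higher. Hist1h1e had 1996, 2476 and 2576 units in Has2+/- saline libraries, against 3632, 3678 and 3050 in WT saline libraries, a difference of -0.56 (limma adjusted p = 0.541). Hist1h1c had 2613, 3522 and 3529 units in Has2+/- saline libraries, against 4603, 4850 and 3819 in WT saline libraries, a difference of -0.46 (limma adjusted p = 0.785). Neither pair of groups overlapped. Members whose 3 Has2+/- libraries all lay below the 3 WT libraries numbered 4 under saline (Hist1h1c, Hist1h1e, Hist1h3i and Hist2h2be), where 6.32% of all genes did so. After ovalbumin they numbered 6 (Hist1h1c, Hist1h1d, Hist1h1e, Hist1h2ae, Hist1h2af and Hist1h2be), where 7.13% of all genes did so, and only Hist1h1c and Hist1h1e stand in both counts. The share of all genes that stand in both was not worked out, so that overlap is a description only.

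The other 4 H1 genes had negative differences after ovalbumin that did not pass. Hist1h1d had 1204, 945.5 and 1109 units in Has2+/- ovalbumin libraries, against 1556, 1704 and 1553 in WT ovalbumin libraries, a difference of -0.57 (adjusted p = 0.123). Hist1h1b was at -0.33, Hist1h1a at -0.11 and Hist1h1t at -0.62, and the replication-independent linker histone H1f0 was at -0.25, also without passing. The intervals that the table lists for Hist1h1c (23738808 to 23740367) and Hist1h1e (23621755 to 23622502) lie 116305 bases apart in the second block, with 4 members listed between them, Hist1h4c (-0.02), Hist1h2bc (0.00), Hist1h2ac (0.01) and the H1 gene Hist1h1t (-0.62), none of which passed. Of the replication-independent variants H3f3b fell in Has2+/- after ovalbumin (-0.44).

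Averaged over the treatments, which was added after the data were seen, Hist1h1e differed by -0.74 ± 0.09 and Hist1h1c by -0.64 ± 0.10 (SE, limma adjusted p = 0.00944 and 0.0243). They were 2 of 56 members that fell, with 0 that rose, where 0.195% of all genes fell and 0.226% rose. Hist1h1e kept its call when any 1 library was left out and lost it with neither trend nor robust fitting (adjusted p = 0.0537). Hist1h1c lost its call likewise, and also without library 1, 2, 3, 4, 5 or 8 and without libraries 3 and 12, where the count was 1 (adjusted p up to 0.0956).

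H1 genes, most of whose units are those of Hist1h1c and Hist1h1e, made up less of the histone signal in libraries labelled Has2+/-. They held 48.3, 54.8 and 56.5% of the members' summed units in Has2+/- ovalbumin libraries, against 66.1, 63.7 and 65.4% in WT ovalbumin libraries. Under saline they held 51.8, 54.5 and 54.4% in Has2+/- and 61.4, 63.9 and 61.6% in WT. The shares did not overlap between genotypes under either treatment, and no test was made of them. Hist1h1c and Hist1h1e alone held 36.4, 44.4 and 46.8% in Has2+/- ovalbumin libraries and 55.4, 53.1 and 55.1% in WT ovalbumin libraries. Under saline they held 44.1, 45.5 and 46.6% in Has2+/- and 52.5, 55.9 and 54% in WT. A lower share of the other H1 genes is therefore not shown.

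**Figure D5:**
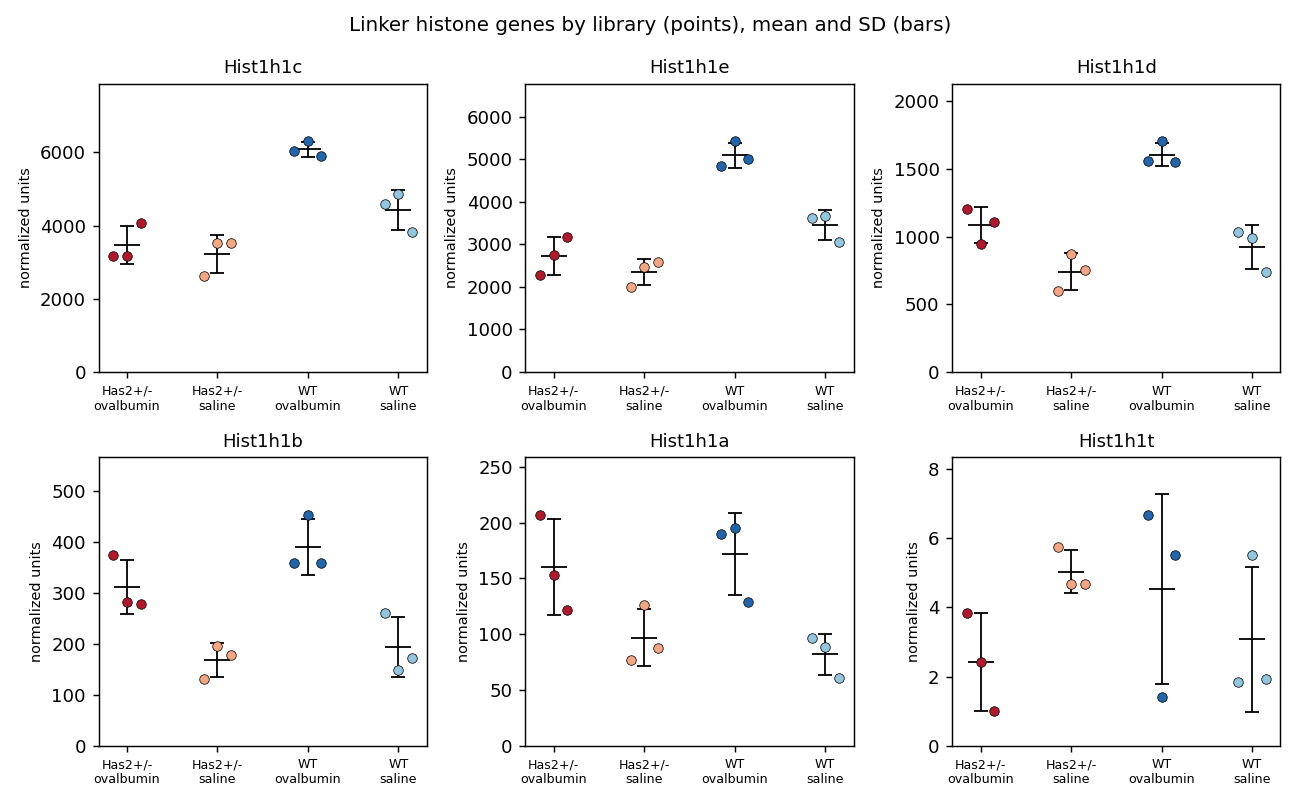
The 6 linker histone genes by library (points) in normalized units, with the mean and SD of 3 libraries per group. Hist1h1c and Hist1h1e lie lower in Has2+/- than in WT under both treatments, without overlap, while Hist1h1a and Hist1h1b overlap between genotypes.

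The authors' deposited table gives its own test of the same groups. Its treatment folds run saline over ovalbumin, and a negative one means higher after ovalbumin. The authors' deposited table has 21 of the 70 members higher after ovalbumin in WT at an FDR under 0.05, where 2.25% of its 49585 rows are. In Has2+/- the authors' deposited table has 2, Hist1h1b and Hist1h3a, where 0.559% of its rows are higher. Between genotypes the authors' deposited table gives 2 members lower in Has2+/- after ovalbumin, Hist1h1e (signed fold -1.87, FDR = 2.81e-05) and Hist1h1c (signed fold -1.75, FDR = 0.000346), where 0.0928% of its rows are lower. Under saline the authors' deposited table gives 0 members, where 0.00605% of its rows are lower and 0.00807% higher.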

How the data were processed

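The authors deposited 1 table of gene values for all 12 libraries, whose normalized signal is, from the values themselves, gene counts brought to the same distribution in every library, since the sorted columns are identical. They are not counts, so no count model was used. The submitters' processing notes name the mm10 build; for the aligner and counter the entry is: not given in the sources used here. Besides these values the deposited table holds the authors' own comparisons, with a fold score per gene from an EDGE test and an FDR (p-value) column, per the file headers; its 12 transformed columns were not used. Columns were matched to groups by name, and no column could be matched to a single titled sample.

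All 4 groups entered 1 fit in limma 3.58.1 (R 4.3.3) on log2(value + 1), with trend and robust moderation, over 19017 genes with a mean of at least 1 unit in at least 1 group. Tests were two-sided, with Benjamini-Hochberg adjustment within each comparison. The fit was tested on simulated data. Annotation was GENCODE M21, matched by ID for 68 members and by symbol for Hist1h2bh and Hist1h2bm.

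The members and gene lists were chosen with earlier results of these data known. Named members are those past the threshold, with values for the 12 largest changes at most per comparison, the 3 with the highest means in each class, the 3 largest and 3 smallest changes in each comparison, and those under the filter by name. Members named outside that rule, to show a contrast, were chosen after their values were seen.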

Additional observations from a re-analysis of the deposited data

How the results depend on the processing

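Alternatives were pseudocounts of 0.1 and 5, no filter, a group mean of at least 10, neither trend nor robust moderation, only the groups compared, median-of-ratios rescaling and leaving out libraries. The comparisons averaged over genotypes or treatments, and the run without libraries 3 and 12, were added or settled after seeing the data. Leaving out 1 library at a time gave 12 to 30 members higher with ovalbumin in WT, 0 to 3 in Has2+/- and 26 to 34 averaged over genotypes, where 0 to 1 were lower (Hist4h4, without library 7). It gave 0 to 2 members lower in Has2+/- after ovalbumin and 1 to 2 averaged over treatments. Members higher with ovalbumin in Has2+/- numbered 0 with no filter, 0 with neither trend nor robust moderation, 4 at a group mean of at least 10 and 3 without libraries 3 and 12. Members lower in Has2+/- after ovalbumin numbered 0 with neither trend nor robust moderation and 1 without libraries 3 and 12, and averaged over treatments likewise 0 and 1. The cause of these shifts was not tested. Of the values of named members that passed the threshold in the main fit or in the alternative, 0 changed direction. Changes of direction in values that passed in neither were not counted. No paired analysis was possible because the table's columns carry a running library number that matches no replicate number of the titles. The depth of the libraries is unknown, so no counting error could be given. DESeq2 and edgeR were not run, since the values are not counts.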
